A study of Rattus norvegicus with 16 samples.

Results

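The genes described here encode the proteins of the mitochondrial ribosome, the machine that translates the few proteins encoded by mitochondrial DNA. They were taken as every row present in all 16 count tables whose symbol, in any case, is Mrpl or Mrps followed by a digit. The rule itself uses no measured value, but the gene family was chosen with earlier results of these data known. The rule found 78 rows of the 18031 rows common to all tables, under 76 different symbols, with 49 Mrpl rows and 29 Mrps rows. Of these 78 rows, 77 passed the filter on low counts and were tested, and 1 row under the symbol MRPL36 had no count in any library.

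The samples were whole blood of 16 adult male Sprague-Dawley rats from Charles River, 85 to 90 days old, all of them saline controls, with 1 library for each rat. Each rat received 4 injections of saline at 1 ml/kg, 2 h apart, and blood was drawn from the heart 3 h after the last injection. Total RNA was depleted of alpha and beta globin transcripts, and stranded poly-A libraries were sequenced. All rats form 1 group with no treated arm here. The comparisons below were therefore between libraries of different run codes and along marker levels of blood cell types. The run codes in the tables' names put controls 1 to 3 in run A, controls 4, 5, 7, 8 and 10 in run B, controls 6 and 9 in run C, controls 11 to 14 in run D, control 15 in run E and control 16 in run F. The labels do not say which step a run code marks. The study's methods describe control cohorts dosed and killed months apart, and the labels do not tie a rat to a cohort. Run, cohort and date therefore cannot be told apart in any comparison of runs A, B and D, nor in a result that follows run B.

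Library totals lay between 21466776 and 31189549 estimated counts, and 10 globin rows still held 2.97% to 15.5% of them. T-cell, B-cell, neutrophil, monocyte, platelet and erythroid markers were present in every library, as whole blood holds. Markers of other tissues stood apart most in 4 libraries. The mean log2 level of 10 liver markers was 14.4 in control 2 and 10.5 in control 8, against a lowest level of 2.23. This liver level was also raised in control 7, at 8.36, and in control 5, at 6.83. In all other libraries it was at most 4.22. The early lymphoid and fat marker levels were 9.19 and 8.35 in control 12, and the heart muscle level was 5.22 in control 10. Heart muscle markers were all at 0 in controls 6 and 8. Results that rest on controls 2, 8, 10 and 12 are given with and without them. That check keeps controls 5 and 7 and their liver signal.

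Mitochondrial ribosomes consist of a large and a small subunit, whose RNAs come from mitochondrial DNA while every protein is encoded in the nucleus, made in the cytosol and imported. Many of the proteins descend from bacterial ribosomal proteins, and others exist only in mitochondria. Symbols do not always give the subunit: the products of Mrps30 and Mrps18a sit in the large subunit, and Mrps36 encodes a component of the 2-oxoglutarate dehydrogenase complex rather than a ribosomal protein. By these assignments the 78 rows held 32 rows for large-subunit proteins with a bacterial counterpart, 19 for large-subunit proteins found only in mitochondria, 16 and 10 for the same kinds of small-subunit protein, and Mrps36. Mature red cells have no mitochondria, neutrophils have few, and lymphocytes and reticulocytes still carry them.

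Promoters of the members are shown because the genes moved together in part and because a few of them moved apart from the rest. RefSeq promoters on the rat build GRCr8 could be matched for 61 of the 76 symbols, and the 250 bases before each annotated start were searched on both strands. The first pair below belongs to members that rose with neutrophil markers, the second pair to members that rose with erythroid markers, and the third pair to members that rose with T-cell markers. Sequences run 5′ to 3′ along the gene's strand. Capitals mark the palindrome of nuclear respiratory factor 1, a regulator of mitochondrial genes (GCGCA followed directly by TGCGC), the ETS core CCGGAAG and the GC box GGGCGG, each on either strand.
Mrps6, chr11:44778417-44778666, plus strand: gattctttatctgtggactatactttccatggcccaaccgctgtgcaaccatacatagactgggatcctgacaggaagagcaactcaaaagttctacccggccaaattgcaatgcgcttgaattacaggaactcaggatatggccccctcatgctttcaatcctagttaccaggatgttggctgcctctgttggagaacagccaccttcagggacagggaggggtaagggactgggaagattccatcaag
Mrpl45, chr10:82804789-82805038, plus strand: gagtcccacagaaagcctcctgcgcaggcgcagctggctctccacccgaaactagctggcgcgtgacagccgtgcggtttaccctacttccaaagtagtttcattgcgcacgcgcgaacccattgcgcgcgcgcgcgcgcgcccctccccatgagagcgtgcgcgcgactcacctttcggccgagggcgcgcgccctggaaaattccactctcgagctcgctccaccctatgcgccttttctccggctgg
Mrpl37, chr5:127074968-127075217, minus strand: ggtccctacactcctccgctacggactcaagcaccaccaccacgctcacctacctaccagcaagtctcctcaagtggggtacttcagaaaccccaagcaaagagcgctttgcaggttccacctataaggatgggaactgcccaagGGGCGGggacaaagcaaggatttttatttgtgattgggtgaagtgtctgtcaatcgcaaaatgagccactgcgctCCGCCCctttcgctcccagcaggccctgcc
Mrpl27, chr10:80092095-80092344, plus strand: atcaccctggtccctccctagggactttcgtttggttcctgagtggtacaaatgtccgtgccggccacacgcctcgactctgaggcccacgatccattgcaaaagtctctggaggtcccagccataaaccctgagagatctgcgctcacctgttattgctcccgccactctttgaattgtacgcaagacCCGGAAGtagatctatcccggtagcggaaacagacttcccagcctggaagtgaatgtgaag
Mrpl44, chr9:88554800-88555049, plus strand: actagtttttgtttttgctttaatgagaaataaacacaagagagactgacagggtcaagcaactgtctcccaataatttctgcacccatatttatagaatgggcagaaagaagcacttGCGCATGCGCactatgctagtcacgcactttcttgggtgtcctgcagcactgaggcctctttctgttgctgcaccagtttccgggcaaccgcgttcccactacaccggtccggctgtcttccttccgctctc
Mrps18b, chr20:2842756-2843005, plus strand: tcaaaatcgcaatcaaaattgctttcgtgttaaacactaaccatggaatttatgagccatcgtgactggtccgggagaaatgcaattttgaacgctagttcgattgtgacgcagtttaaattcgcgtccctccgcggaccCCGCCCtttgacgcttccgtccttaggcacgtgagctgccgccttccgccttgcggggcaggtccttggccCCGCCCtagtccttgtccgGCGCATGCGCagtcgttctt

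The palindrome stood in 4 of the 61 member promoters, 6.56%, against 1.04% of 19005 promoters of protein-coding genes. Its members were Mrpl17, Mrpl32, Mrpl44 and Mrps18b. The other members that rose with the T-cell level, Mrps5, Mrps26, Mrps2 and mrpl9, lacked it, so the pair shown does not stand for all of them. The ETS core was found in 11 of 61 members, against 9.51% of all promoters. The GC box, at 41.0% against 40.2%, and the TATA box TATAAA, at 13.1% against 12.4%, had nearly equal shares. The GATA motif AGATAAG of erythroid factors was found in 1 member, 1.64%, against 2.36%, and GAGGAAGT, a motif of the myeloid factor PU.1, in 0 of 61 members against 2.0% of all promoters. The Mrps6 window, shown above, held none of the 8 motifs searched. The same was true of Mrpl45, mrpl9, Mrps2, Mrps23 and further members, so this does not set Mrps6 apart. The start of another protein-coding gene lay within 1000 bases on the opposite strand, pointing away, for 17 of 61 members, 27.9%, against 6.9% of all genes. In 1 such arrangement both genes were members, with Mrpl46 of the large subunit beside Mrps11 of the small subunit. These shares are descriptions of the windows, and no test of binding was made.

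Counts of a gene depend on the length of its transcript, and no transcript lengths were used here, so levels of different genes are given without ranking their abundance per transcript. The median member had a mean normalized count of 230.0 over the 16 libraries, and 73 of the 78 rows had a mean of at least 100. The 5 highest rows were Mrpl37 with a mean of 958 ± 438 (SD, n = 16), Mrpl53 with 918 ± 336, Mrps21 with 880.2 ± 357, Mrpl33 with 713 ± 220.0 and Mrpl17 with 610.3 ± 49.5. All of these except Mrps21 encode large-subunit proteins. The lowest rows above 0 were Mrps28 with a mean of 7.95 ± 3.89, Mrps10 with 43.5 ± 21.2, Mrpl38 with 85.3 ± 13.8, 1 of the MRPL30 rows with 86.7 ± 14.7 and Mrps11 with 111 ± 22.6. Mrps28 rested on 2 to 19 estimated counts a library, too few to resolve a change.

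Some rows are uncertain because of near-identical copies or overlapping genes. MRPL30 was listed as ENSRNOG00000018511 with a mean of 86.7 and as ENSRNOG00000049330 with a mean of 202, and estimated counts may divide reads between them. The symbol MRPL36 was listed with 0 counts in all libraries as ENSRNOG00000047971, where 3 counts would be 0.0962 to 0.140 CPM, and with a mean of 343 ± 88.3 as ENSRNOG00000023407. In RefSeq the sodium/myo-inositol cotransporter gene Slc5a3 lies inside the span of Mrps6, and no row common to the tables carries it. The share of Mrps6 counts that might come from Slc5a3 transcripts was not tested. Mrpl37 overlaps Ssbp3, Mrpl27 overlaps Eme1 and Mrpl43 overlaps Twnk, the gene of the mitochondrial DNA helicase. RSEM on its default settings does not use strand, so reads from overlapping transcripts on opposite strands may not have been told apart.

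Summed over all members, the rows took 859 ± 147 CPM (counts scaled to a library total of 1000000; SD, n = 16), with a lowest value of 661 in control 8, a median of 836 and a highest value of 1199 in control 12. The large-subunit rows took 575 ± 96.0 and the small-subunit rows 271 ± 49.5 CPM. Their ratio hardly moved, at 2.13 ± 0.0788, between 2.02 in control 3 and 2.28 in control 15. The order of libraries depended on scaling. Control 10 had 693 CPM, among the lowest, but the highest sum of counts normalized by median ratio, 27158. Control 1 had the lowest such sum, 18046. The plot of summed levels by library shows both scales.

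**Figure D1:**
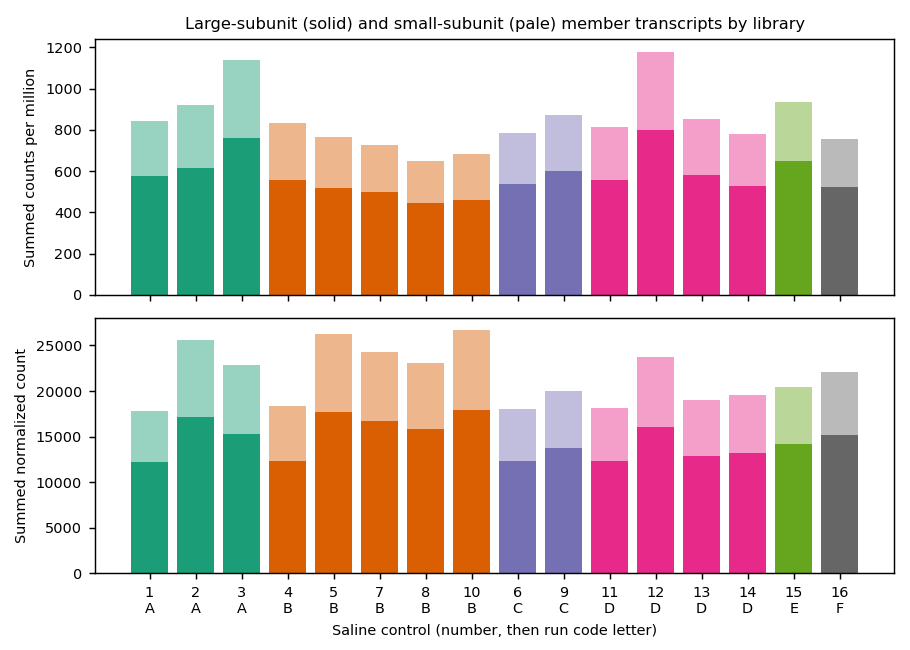
Summed member transcripts in each of the 16 saline controls, grouped by run code letter, with large-subunit rows solid and small-subunit rows pale; the upper axis is CPM over the rows common to all tables and the lower axis is the summed normalized count. Control 12 is highest in CPM at 1199, and control 10 is highest in normalized counts at 27158.

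Over the 16 animals, member levels were more alike than those of genes of like level. The median Pearson correlation of log2 levels over the 16 libraries was 0.452 among the 2628 pairs of the 73 members with a mean of at least 100, and −0.00488 among pairs of the 5902 genes within the same range of means. Without controls 2, 8, 10 and 12 the medians were 0.391 and −0.00591. All pairs share the same libraries and their scaling, so these are descriptions. Control 2 held the highest value of 29 of the 77 members with counts, and controls 1 and 4 each held the lowest value of 15. The median member stood 0.40 above its own mean (log2) in control 2, where all genes with a mean of at least 100 had a median deviation of −0.03, and this is the library with the highest liver level. It stood 0.25 above in control 12, with the early lymphoid and fat markers, and 0.24 above in control 3, where liver, fat and early lymphoid levels were 3.10, 2.79 and 3.22. The part of these other tissues in the member levels was not tested.

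**Figure D2:**
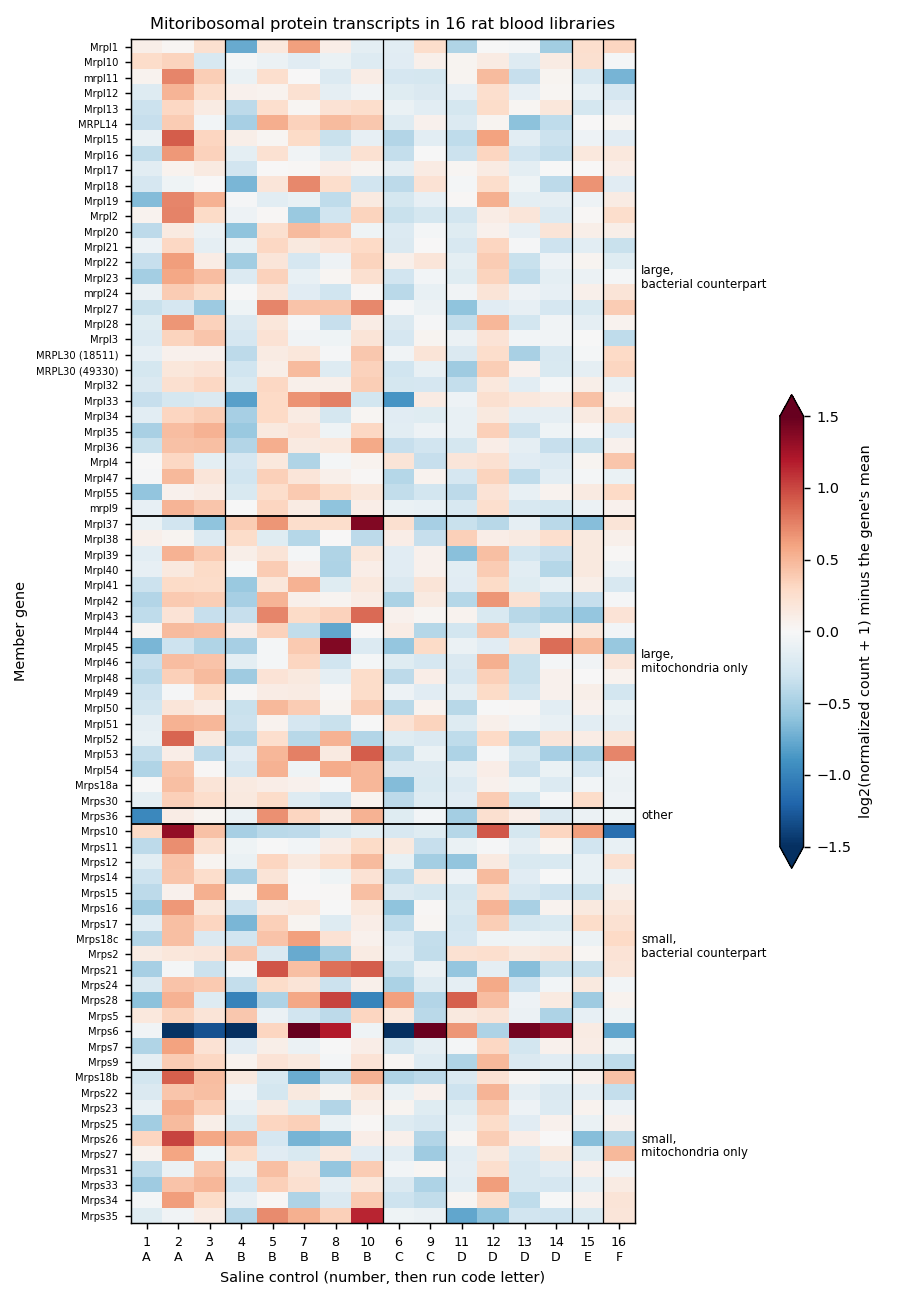
Levels of the 77 members with counts in each library, as log2(normalized count + 1) minus the gene's mean, with libraries grouped by run code and genes by subunit and origin. Most rows are red in controls 2 and 12 and blue in control 1, and the Mrps6 row departs from the others.

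The spread between animals was close to that of other genes. The coefficient of variation had a median of 21.7% over the 73 members with a mean of at least 100, with quartiles of 18.8% and 25.4%, against a median of 23.4% and quartiles of 17.9% and 33.2% for the 5902 genes in the same range of means. Of the 73, 49 lay under the median of those genes and 7 above their upper quartile. The steadiest was Mrpl17, a large-subunit protein with a bacterial counterpart, at 8.11%, with a lowest normalized count of 498, a median of 620.0 and a highest of 665. It was followed by Mrpl10, part of the stalk base, at 12.9%, Mrpl49 at 13.6%, mrpl24 at 14.7% and Mrpl3 at 15.8%. The most variable were Mrps6 at 72.1%, Mrpl45 at 48.0%, Mrpl37 at 45.8%, Mrps21 at 40.6% and Mrps35 at 39.2%. By origin, the median was 21.1% for large-subunit proteins with a bacterial counterpart and 22.0% for those of mitochondria only.

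**Figure D3:**
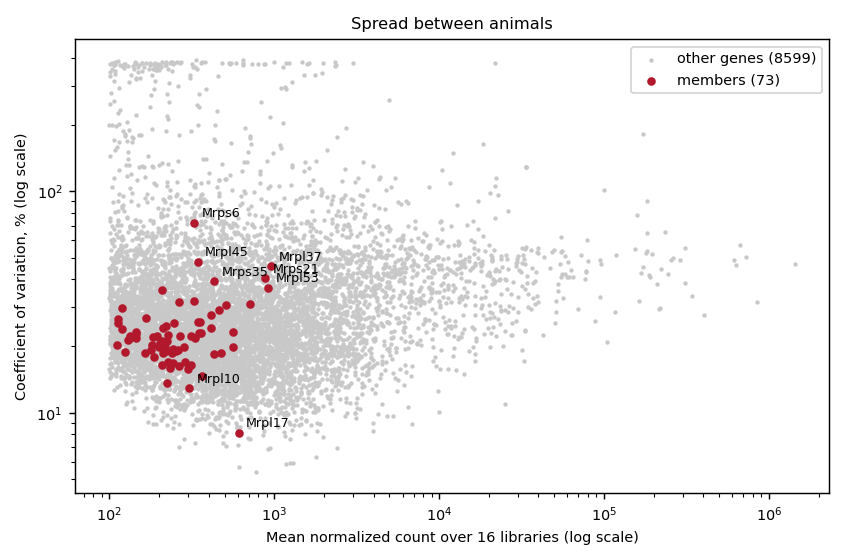
Coefficient of variation over the 16 libraries against the mean normalized count, both on log axes, for genes with a mean of at least 100; members are red and other genes grey. Members lie within the cloud, with Mrpl17 lowest at 8.11% and Mrps6 highest at 72.1%.

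The next comparisons asked which members followed the blood cells of each sample. For each library the level of a cell type was the mean log2 normalized count of its markers, and a slope is the log2 change of a gene for 1 SD of that level, from edgeR's quasi-likelihood test over the 16 libraries with Benjamini-Hochberg adjusted p. In bulk blood, fewer cells of a type and less RNA per cell cannot be told apart. The levels are not independent of each other. With the neutrophil level 5 of 11 T-cell markers and 6 of 7 B-cell markers fell, and 4 of 8 monocyte markers tested rose. With the T-cell level 9 of 10 neutrophil markers tested fell. The T-cell and neutrophil slopes come from the same libraries, so they are not separate results.

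Along the neutrophil level, which ran from 9.28 in control 6 to 14.1 in control 8 with an SD of 1.42 on the log2 scale, 3 members rose and 5 fell of 77 tested, where 13.9% of all genes rose and 9.65% fell. That is 10.4% of the members, while 23.6% of all 12762 genes passed. The 3 that rose were Mrps6 and Mrpl33, proteins with bacterial counterparts, and Mrpl45, a large-subunit protein that faces the inner membrane. The 5 that fell were Mrps5, Mrps26, mrpl9, Mrps23 and Mrpl44. The median slope was −0.07 for the members and −0.04 for all genes.

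Mrps6 (ENSRNOG00000002010) had normalized counts from 50.4 in control 6 through a median of 249 to 696 in control 7. The 4 libraries with the least neutrophil marker signal, controls 6, 2, 4 and 3, were also the 4 with the least Mrps6, at 50.4, 85.9, 75.3 and 97.4. Controls 7, 9, 13, 14 and 8 were high, at 696, 677, 661, 605 and 552, while control 15 had 264 at a neutrophil level of 12.7. Its slope was 1.18 ± 0.14 (SE), with an edgeR adjusted p of 1.01e-05, and 1.2 with an adjusted p of 0.000837 with run code as a further term. Leaving out each library in turn gave 1.05 to 1.25. Without controls 2, 8, 10 and 12 it was 1.27, with an adjusted p of 6.46e-05. Runs E and F hold 1 library each, so controls 15 and 16 added nothing to the slope in any fit with a run term.

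Mrpl45 (ENSRNOG00000010540) ran from 195 in control 1 through a median of 288 to 829 in control 8. Controls 8 and 14, with the highest neutrophil levels, held its highest counts, 829 and 566. The slope was 0.52 ± 0.06, with an edgeR adjusted p of 6.99e-06, and 0.50 with an adjusted p of 0.00159 with run code as a further term. Without controls 2, 8, 10 and 12 it was 0.46, with an adjusted p of 0.000425. Mrpl33 (ENSRNOG00000025388), which encodes a short protein of the large subunit, ran from 367 in control 6 through a median of 723 to 1152 in control 8. Its slope was 0.35 ± 0.07, with an adjusted p of 0.00227, and lost the call only when libraries were scaled by total count, at 0.28 with an adjusted p of 0.101. Slopes of Mrps6 and Mrpl45 passed under each of the 23 alternatives run.

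The members that fell with the neutrophil level moved by less. Mrps26, a small-subunit protein of mitochondria only, ran from 122 in control 7 to 401 in control 2, with a slope of −0.35 ± 0.10 and an edgeR adjusted p of 0.0135. Mrps5 had a slope of −0.24 ± 0.05 (adjusted p = 0.00364), mrpl9 one of −0.20 ± 0.06 (adjusted p = 0.0178), Mrps23 one of −0.18 ± 0.05 (adjusted p = 0.0205) and Mrpl44 one of −0.24 ± 0.07 (adjusted p = 0.0252). Without controls 2, 8, 10 and 12 none of these 5 passed in edgeR, with adjusted p between 0.0617 and 0.379. The 3 that rose still passed. In that fit 9.93% of all genes rose and 1.2% fell, 11.1% in all, against 13.9% and 9.65% over the 16 libraries. Calls of a fall were thus mostly lost among all genes as well. With run code as a further term 18.5% of genes passed, and of the 8 members mrpl9 was lost, with an adjusted p of 0.107. Leaving out control 2 or control 8 lost mrpl9 and Mrps23, with adjusted p up to 0.113 and 0.101, and leaving out control 2, 3 or 8 lost Mrpl44, with up to 0.134.

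**Figure D4:**
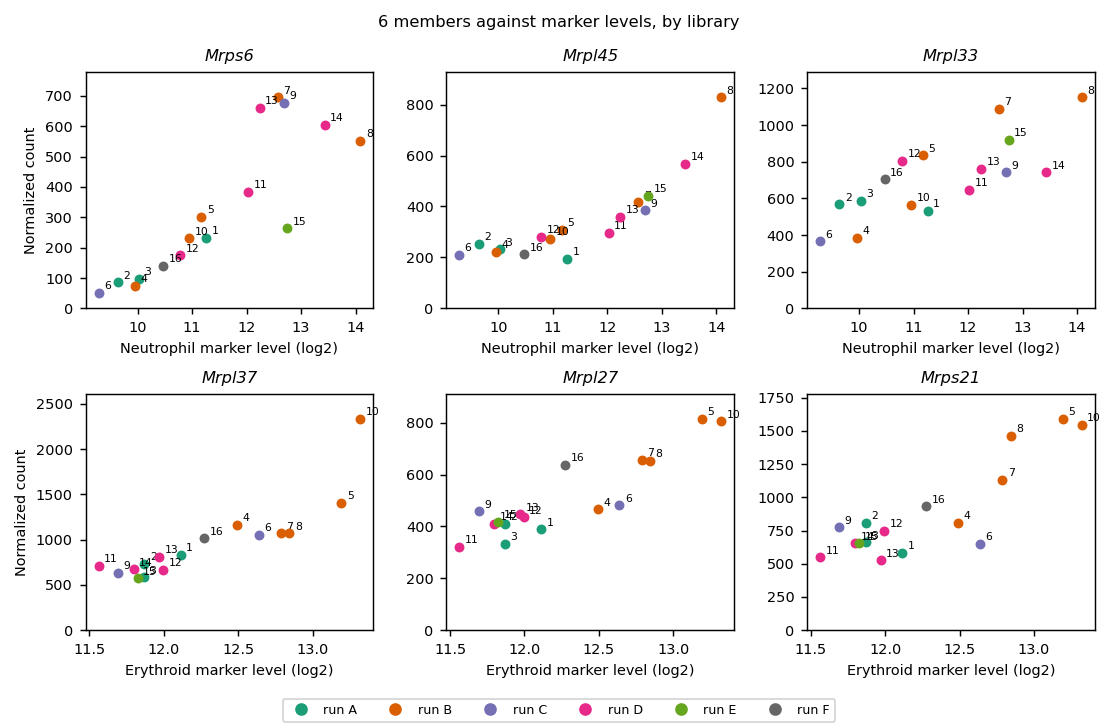
Normalized counts of 6 members by library against the neutrophil marker level (upper row) and the erythroid marker level (lower row), with points numbered by control and coloured by run code. Mrps6 rises from 50.4 to 696 along the neutrophil level across several runs, while the high erythroid levels are nearly all in run B.

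Along the T-cell level, from 9.76 in control 8 to 10.9 in control 4 with an SD of 0.319 on the log2 scale, 6 members rose and 2 fell, where 6.63% of all genes rose and 9.46% fell. These 10.4% of members compare with 16.1% of all 13022 genes tested. The 6 were Mrps5, Mrpl44, Mrps26, Mrps2, mrpl9 and Mrps18b, and the 2 were Mrpl45 and Mrps6. The median slope was 0.09 for members and 0.03 for all genes. All 10 small-subunit proteins of mitochondria only had a slope above 0, of which 2 passed. Most members of the other classes also had one. These were 23 of 31 large-subunit members with a bacterial counterpart, 14 of 19 of mitochondria only, and 12 of 16 small-subunit members with a bacterial counterpart. Along the neutrophil level the signs were mirrored, with all 10 below 0, and 21 of 31, 15 of 19 and 12 of 16 of the other classes. The share of all genes with a slope above 0 is not given, so these tallies cannot set the members apart. With libraries scaled by total count edgeR called 0 members and 0 of 13022 genes.

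Mrps26 had the steepest rise, 0.34 ± 0.10 per SD, with an edgeR adjusted p of 0.038. Mrps18b, 1 of 3 proteins of the Mrps18 family and the 1 that occupies a mitochondria-only position in the small subunit, ran from 151 in control 7 through a median of 249.7 to 473 in control 2, with a slope of 0.28 ± 0.09 and an adjusted p of 0.0466. Mrpl44, whose protein has a ribonuclease III fold, ran from 81.7 in control 8 through 145 to 196 in control 2, with a slope of 0.25 ± 0.07 and an adjusted p of 0.0326. Slopes were 0.20 ± 0.06 for Mrps5, 0.22 ± 0.07 for Mrps2 and 0.19 ± 0.06 for mrpl9. Mrps6 fell by 0.79 ± 0.24 and Mrpl45 by 0.40 ± 0.10 on the log2 scale, with adjusted p of 0.0325 and 0.0134. These calls rested on few libraries. Without control 8, which had the lowest T-cell level, no member passed, although slopes such as that of Mrps6, −0.79, and of Mrps18b, 0.26, hardly moved, while Mrpl45 went to −0.25. The count also fell without other libraries: without control 3 or 9 only 1 member passed, without control 7 there were 4 and without control 12 there were 5. The share of all genes is not given for fits that left out 1 library, so these counts cannot set the members apart. None passed without controls 2, 8, 10 and 12, where edgeR called 0.0% of 12633 genes, with 10 of 76 members and 2102 genes at an unadjusted p under 0.05. With run code as a further term, where 11.9% of all genes passed, Mrpl44, Mrps26 and Mrpl45 did so, with adjusted p of 0.0488, 0.048 and 0.0326.

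Along the erythroid level, from 11.6 in control 11 to 13.3 in control 10 with an SD of 0.548 on the log2 scale, 6 members rose and none fell. That is 7.79% of the members against 6.58% of all 12762 genes called higher, a share near the background. The members were Mrpl37, Mrpl53 and Mrpl43, large-subunit proteins of mitochondria only, Mrpl27, whose bacterial counterpart lies beside the peptidyl transferase centre, and Mrps21 and Mrps35 of the small subunit. The median slope of all members was −0.01, or −0.24 when libraries were scaled by total count, where that of all genes was −0.27 in place of −0.05. Under that scaling 2 members, Mrpl37 and Mrps21, were called higher and 27 lower, among 331 and 3791 genes, and the calls of Mrpl27, Mrps35, Mrpl43 and Mrpl53 were lost.

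Mrpl37 (ENSRNOG00000009078) ran from 573 in control 15 through a median of 822 to 2332 in control 10. Its slope was 0.48 ± 0.06 with an edgeR adjusted p of 6.34e-05. Mrps21 (ENSRNOG00000024845) ran from 527 in control 13 through 762 to 1589.7 in control 5, with a slope of 0.42 ± 0.07 and an adjusted p of 0.000539. Mrpl27 (ENSRNOG00000003724) ran from 321 in control 11 through 453 to 815 in control 5, with a slope of 0.35 ± 0.05 and an adjusted p of 0.000259. Mrps35 rose by 0.39 ± 0.07, Mrpl53 by 0.32 ± 0.09 and Mrpl43 by 0.29 ± 0.07 per SD, with adjusted p of 0.00179, 0.0247 and 0.0174. Leaving out control 5 or 10 lost Mrpl43 and leaving out control 7, 10 or 11 lost Mrpl53, with adjusted p up to 0.181 and 0.225.

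The erythroid level followed run B in large part. The 5 libraries of run B had levels of 12.5 to 13.3, those of runs A and D lay between 11.6 and 12.1, control 6 of run C had 12.6 and control 16 of run F had 12.3. With run code as a further term edgeR called 0.0% of genes, with 3 of 77 members and 653 of 14219 genes at an unadjusted p under 0.05. The slopes in that fit were about as large for Mrpl37, at 0.48, and Mrps35, at 0.39, and smaller for Mrpl27, at 0.29, Mrpl43, at 0.22, Mrps21, at 0.17, and Mrpl53, at 0.17, with adjusted p between 0.581 and 0.934. Without controls 2, 8, 10 and 12 Mrpl37, Mrpl27 and Mrps21 passed, with slopes of 0.36, 0.31 and 0.35, where 2.83% of genes were called higher.

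**Figure D5:**
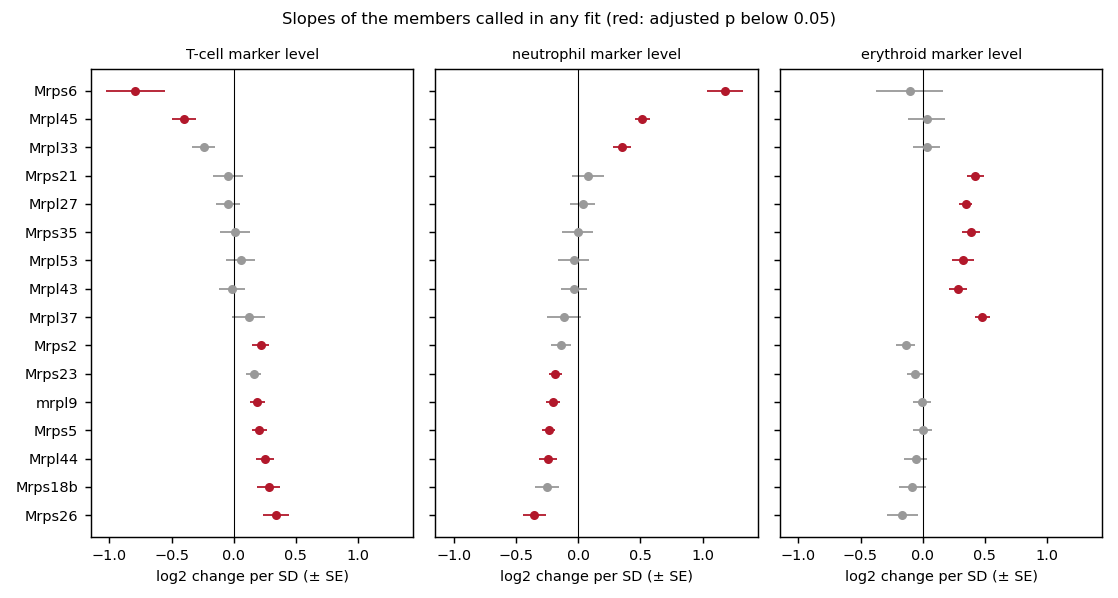
Slopes of the 16 members called in any fit along the T-cell, neutrophil and erythroid marker levels, as log2 change per SD of the level with standard error bars; red points have an adjusted p below 0.05. Mrps6, at 1.18, and Mrpl45, at 0.52, stand to the right along the neutrophil level, and the 6 members that rose with the erythroid level lie near 0 in the other panels.

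The 3 runs with at least 3 libraries were then compared over 12 libraries, to see how far member levels held from run to run. Between runs A and B edgeR called none of the 77 members and 0.0% of 12952 genes. At an unadjusted p under 0.05 there were 7 members, 9.09%, and 13.5% of genes, and DESeq2 called 3 members higher in run B, 3.9%, against 4.18% of genes called higher. Between runs A and D edgeR again called no member and 0.0% of genes, with 1 member and 5.41% of genes at an unadjusted p under 0.05, and DESeq2 called no member and 14 genes, 0.111%. Between runs B and D edgeR called 1 member lower in run D, 1.3% of the members, against 2.26% of all genes called lower. DESeq2 called 5 members lower in run D, 6.49%, against 5.63% of genes called lower. All values of one run lay above those of the other for 3 members between A and B, 3.9% of members against 6.38% of genes. The same held for 5 members between A and D, 6.49% against 7.08%, and for 3 members between B and D, 3.9% against 5.96%. These shares lay under the background in each comparison.

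The member called was Mrps21. Its normalized counts in run B were 808 in control 4, 1589.7 in control 5, 1130.2 in control 7, 1464 in control 8 and 1546 in control 10. In run D they were 548 in control 11, 750.3 in control 12, 527 in control 13 and 652 in control 14. The runs did not overlap. The log2 difference, run D minus run B, was −1.06 ± 0.21 (SE), with an edgeR adjusted p of 0.0313. Leaving out each library in turn gave −1.2 to −0.98 and lost the call for controls 5, 7, 10, 11, 12, 13 and 14, with adjusted p up to 0.131. It was −1.02 without controls 2, 8, 10 and 12, with an adjusted p of 0.183. With total count scaling it was −0.5, with an adjusted p of 0.179, and there the median log2 difference of all genes was 0.53. Next came Mrpl27 with −0.74 ± 0.18, Mrpl37 with −0.96 ± 0.24 and Mrps35 with −1.02 ± 0.26, which did not pass, with adjusted p of 0.0572, 0.0619 and 0.0705. These are among the members that rose with the erythroid level, which had a mean of 12.9 in run B and 11.8 in run D.

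Members with well described roles mostly passed no test. Mrpl12, which forms the stalk and binds the mitochondrial RNA polymerase, had a mean of 233 ± 37.3 and slopes of 0.10, −0.08 and −0.04 on the T-cell, neutrophil and erythroid levels. Its partner in the stalk, Mrpl10, had slopes of −0.01, 0.01 and −0.12. The decoding-centre protein Mrps12 ran from 144 to 302, and Mrps36, the dehydrogenase component, from 175 in control 1 to 553 in control 5. Of the other members of the Mrps18 family, Mrps18a had a mean of 240.0 ± 44.7 and Mrps18c of 351 ± 80.6. The means were 299 ± 47.4 for Mrpl3, 114 ± 28.7 for mrpl11, 284 ± 56.3 for Mrpl41, 182 ± 36.8 for Mrps22, 184 ± 40.5 for Mrps34 and 186 ± 33.1 for Mrps30. The lowest adjusted p of edgeR along the 3 marker levels was 0.0757 for Mrps34 and 0.0798 for Mrps30, both along the T-cell level.

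Other genes of mitochondrial translation are listed by function. Of 11 translation factors, 4 rose with the T-cell level and 2 fell with the neutrophil level, among them Mtif2, the initiation factor, with slopes of 0.24 and −0.22, and the elongation factor Gfm1 with 0.23 and −0.19. Of 22 assembly and rRNA factors tested, 6 rose with the T-cell level and 6 fell with the neutrophil level. Among these were Lrpprc, which stabilises mitochondrial mRNA, with 0.23 and −0.24, and the ribosome GTPase Mtg1 with 0.26 and −0.24. Of 16 mitochondrial tRNA synthetases tested, 3 rose with the T-cell level and 6 fell with the neutrophil level. Lars2 and Wars2 moved in both, with −0.31 and −0.30 along the neutrophil level. The shares of all genes beside these counts are those given above, 6.63% higher along the T-cell level and 9.65% lower along the neutrophil level.

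Of 7 mitoribosomal proteins under other symbols, Ptcd3 rose with the T-cell level and fell with the neutrophil level, with slopes of 0.28 and −0.25, and Aurkaip1 rose with the neutrophil level by 0.22. Among 10 regulators tested, Esrra, a nuclear receptor of mitochondrial genes, rose with the neutrophil level by 0.76 ± 0.08, with an edgeR adjusted p of 2.17e-06, and fell with the T-cell level by 0.65. Gabpb1, a subunit of nuclear respiratory factor 2, rose with the neutrophil level by 0.38. With the erythroid level only Ddx28 and Fars2 of these lists rose, by 0.36 and 0.24. With run code as a further term neither passed. Of the 15 calls of these lists along the T-cell level, 9 passed with run code as a further term, 0 with total count scaling and 0 without controls 2, 8, 10 and 12. Of the 18 along the neutrophil level, 11 passed with the run term, 1 with total count scaling, that of Esrra, and 3 without those controls, those of Esrra, Gabpb1 and Aurkaip1. Without those controls 9.93% of all genes rose and 1.2% fell along the neutrophil level. No gene of these 5 lists passed between runs. The 1 mitochondrially encoded row, MT-ATP6, ran from 99567 in control 13 through a median of 155420 to 232280 in control 5.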

How the data were processed

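Whole-blood RNA of 16 saline control rats was measured. Per the labels and the study's methods, the authors depleted globin mRNA, made TruSeq stranded mRNA libraries, converted base calls with CASAVA 1.8.2, clipped reads with fastq-mcf, aligned them to the Ensembl transcriptome of rn5 with Bowtie 0.12.9 and deposited RSEM 1.2.0 expected counts per gene. The study's methods name no RSEM setting other than the defaults, which do not use strand. Expected counts were rounded to whole numbers, and the 18031 rows common to all tables were used. Tests were edgeR 4.0.16 quasi-likelihood fits (TMM, filterByExpr, Benjamini-Hochberg adjusted p under 0.05) in R 4.3.3. They were checked on simulated data of 12 libraries, with 200 of 12952 genes changed by log2 1 or 2. Recovered were 87.5% for a slope per SD of an evenly spaced covariate. Between runs it was 30.5% (A and B), 32.5% (A and D) and 42.5% (B and D). Called member slopes were under 1 in size except that of Mrps6 along the neutrophil level, so the 87.5% does not apply to them. Fits of 3 runs used 12 libraries and slopes used 16. Levels are counts divided by DESeq2 1.42.0 size factors, with 1 added before log2. Alternatives were other scalings, no filter, DESeq2, limma 3.58.1 voom, all libraries, no globin genes, a run term and leaving out each library. Lists of markers and pathway genes, and the members, were chosen with earlier results of these data known. Members were named if called (up to 10 a fit), among the 5 highest or lowest by mean or by coefficient of variation, or in a list of members with known roles or several rows; up to 4 genes of each other list were named. Per the study's methods the rats were dosed in cohorts months apart, which the labels do not tie to samples, so p-values measure the spread between these samples, and cohort cannot be told apart from run. The 2 most similar libraries, controls 11 and 13, differed beyond sampling noise, with a chi-square of 48.0 per degree of freedom.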

Additional observations from a re-analysis of the deposited data

How the results depend on the processing

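The 23 calls of a member in a fit were recomputed under 526 combinations of call and alternative. None turned its direction, 407 kept the call and 119 lost it. No paired analysis was possible because all rats form 1 group. Members called between runs A and B went from 0 to 3 by DESeq2, and from 0 to 3 over fits that left out each library (3 without control 4). Between runs B and D the 1 member became 0 with total count scaling, 5 by DESeq2, 0 without controls 2, 8, 10 and 12, an alternative added after seeing the data, and 0 to 6 when each library was left out, with 6 without control 4. Between runs A and D it was 0 throughout. Along the T-cell level the 8 members became 0 with total count scaling, 3 with a run term, 0 without the 4 controls, and 0 to 11 when each library was left out (1 without control 3 or 9, 4 without control 7, 0 without control 8). Along the neutrophil level 8 became 2 with total count scaling, 3 without the 4 controls, and 5 to 16 (16 without control 6, 5 without control 2 or 8). With total count scaling 767 of 12762 genes rose and 138 fell along that level. Along the erythroid level 6 became 0 with a run term, 3 without the 4 controls, 4 to 7 when each library was left out, and 29 with total count scaling, of which 2 rose and 27 fell, while the median slope of all 12762 genes moved to −0.27 from −0.05. The median coefficient of variation was 30.8% over the few members with a mean of at least 500, and 20.4% and 21.5% without control 2 or 12. Those few ran from 8.11% for Mrpl17 to 45.8% for Mrpl37, and no value of all genes at that cutoff is given beside them. Shares of all genes are not given for the fits that left out each library, so those counts of members have no background beside them. The causes were not tested. Depth limits Mrps28, with at most 19 counts in a library.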
